A study of Fragaria vesca with 8 samples.

Results

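The common response to overexpression of FvVND4c or FvMYB46 in woodland strawberry (*Fragaria vesca*) fruit was estimated from raw read counts, as 1 pooled effect over both regulators. All 8 libraries of the series were used, 4 from fruit overexpressing a regulator and 4 from fruit given the empty vector. They came from a pair of experiments with 2 libraries per group: FvVND4c overexpression against its own empty vector, and FvMYB46 overexpression against its own empty vector. The experiment was a blocking factor, so that overexpression was compared with empty vector within each experiment. Fruits of "Yellow Wonder" were infiltrated with agrobacterium carrying *35S:FvVND4c*, *35S:FvMYB46* or the empty vector and sampled 7 days later, with at least 5 fruits per treatment. All groups, the empty-vector ones included, thus received agrobacterium, and the labels call the empty-vector fruits WT. Expression was transient and driven by the constitutive 35S promoter, so the regulators were not limited to the cells that normally hold them. The labels list 2 libraries per group where the methods of the study describe more, and the assignment of fruits to libraries is not stated. The p-values therefore measure the spread between libraries, which may be technical. Those of the pooled effect also take in differences between the responses to the regulators, as its fit has no term for them.

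Secondary cell walls are laid down inside the primary wall of xylem vessels and fibres once these cells stop growing, and consist of cellulose, xylan and lignin. In Arabidopsis, NAC transcription factors of the VND group switch on vessel differentiation and act in part through the MYB factors MYB46 and MYB83, a second layer of regulators that in turn activate the biosynthetic genes. Lignin is made by the phenylpropanoid pathway, which also feeds the flavonoids that colour strawberry fruit. FvVND4c and FvMYB46 stand at neighbouring layers of this network. The pooled comparison therefore asks which genes moved with both, and how far 1 pooled effect describes them.

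The count files give genes by the identifiers of genome v4.0.a2, and none of the 34009 identifiers was matched to a gene name, so single genes are given by identifier and position. For the same reason, the overexpressed genes themselves and fruit or xylem markers could not be checked in the libraries, and wall, lignin and flavonoid genes could not be counted as groups. The counts summed to between 9765362 and 12845942 per library. At this depth a library without a count for a gene could still hold it at 0.234 to 0.307 CPM (counts scaled to a common library total), which corresponds to 3 counts and allows for counting error alone. After a filter on low counts, 18766 genes (55.2%) were tested. In a principal component analysis of their log2 CPM, the first component (50.5% of the variance) placed the 4 overexpression libraries between 12.9 and 70.8 and the 4 empty-vector libraries between -51.6 and -35.6. The second component (29.7%) separated the regulators, with 55.5 and 65.2 for FvVND4c overexpression, -30.1 and -28.8 for FvMYB46 overexpression, and -18.8 to -13.8 for the empty vectors. A count was found for 22402 and 21923 genes with FvVND4c overexpression and for 23336 and 23199 with FvMYB46 overexpression, against 22030 to 22354 in the empty-vector libraries. Over the arms this was 22715 ± 670 genes with overexpression and 22249 ± 148 with the empty vector (SD, n = 4 each), and the difference did not pass an exact permutation test within experiments (two-sided p = 0.222, smallest possible 0.0556).

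Most genes called with overexpression of the regulators were upregulated, and many of these were barely expressed with the empty vector. A gene was called when its Benjamini-Hochberg adjusted p in edgeR's quasi-likelihood test was under 0.05 and its log2 fold change, overexpression over empty vector, was over 1 in size. By this rule 953 of the 18766 genes (5.08%) were upregulated and 152 (0.81%) were downregulated, together 1105 genes (5.89%). This fit leaves out a possible pairing of same-numbered libraries, and with these as a block of 4 pairs the numbers were 473 and 74. The values below refer to the 953 and 152 genes. Upregulated genes reached a median level of 7.77 CPM with overexpression, against 0.984 CPM with the empty vector. For the downregulated genes the medians were 1.66 CPM with overexpression and 5.77 CPM with the empty vector, and for all genes tested they were 16.6 and 15.8 CPM. A gene could pass the filter on low counts through 1 overexpression group alone. Low empty-vector levels and large rises among upregulated genes can therefore come in part from the filter. With a filter by the arms of 4 libraries, 645 genes were upregulated and 128 downregulated. Upregulated genes had a median log2 fold change of 2.51, with quartiles of 1.56 and 4.22 when silent groups were set to 3 counts, and downregulated genes one of -1.49, with quartiles of -2.03 and -1.18. Changes over 3 on the log2 scale were seen for 385 of the upregulated genes (40.4%) and for 15 of the downregulated genes (9.87%), with silent groups set to 3 counts. Relative to the scaled library totals, 14734 genes (78.5%) had a pooled change of less than 0.5 on the log2 scale. The median log2 fold change of all genes was -0.01, but the scaling itself places the typical gene near 0, so nothing is read from it. A small pooled change can also hide unlike changes under the regulators. In fruit tissue sequenced in bulk, more cells with a transcript and more transcript per cell cannot be told apart.

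**Figure D1:**
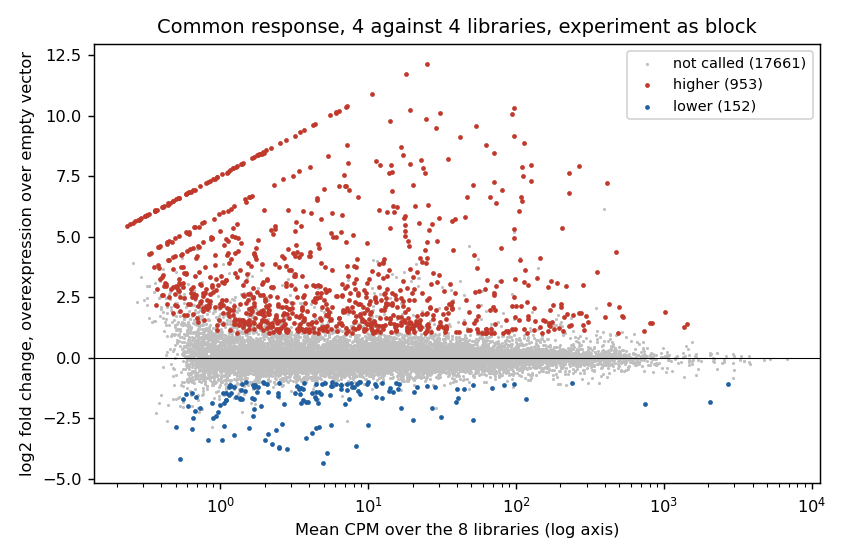
Log2 fold change, overexpression over empty vector with experiment as block, plotted against the mean CPM over the 8 libraries on a log axis, 1 point per gene tested. The 953 upregulated genes (red) reach far above the 152 downregulated genes (blue), and the straight upper edge at the left is formed by genes without counts in the empty-vector arm, whose fitted change follows their level.

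The upregulated genes also took a larger part of the transcriptome. Together they held 4.57% and 4.62% of all CPM with FvVND4c overexpression and 5.23% and 5.29% with FvMYB46 overexpression, against 1.30% and 1.35% in the FvVND4c empty vectors and 1.21% and 1.10% in the FvMYB46 empty vectors. Every overexpression library was above every empty-vector library. The downregulated genes held 0.396% and 0.436% of CPM with FvVND4c overexpression and 0.399% and 0.258% with FvMYB46 overexpression, against 0.975% and 0.911% in the FvVND4c empty vectors and 1.48% and 0.868% in the FvMYB46 empty vectors. Here the empty vectors spread more, and the first FvMYB46 empty-vector library stood highest. These genes were chosen on the same libraries, so the sums describe the size of the response and are no test of it. The first empty-vector library of FvMYB46 and its replicate also differed most among replicate pairs, with a chi-square of their counts of 16.5 per degree of freedom, against 2.44 for the FvVND4c empty vectors, 7.57 for FvVND4c overexpression and 2.80 for FvMYB46 overexpression.

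For 693 of the 953 upregulated genes (72.7%), all 4 overexpression libraries lay above all 4 empty-vector libraries, against 8.24% of all genes tested. For 135 of the 152 downregulated genes (88.8%), all 4 lay below, against 6.54% of all genes tested. The genes were called on these same libraries, so shares above those of all genes follow from the choice and are no support for the calls. For each of the other upregulated genes, at least 1 overexpression library was no higher than an empty-vector library of either experiment.

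A pooled call did not require that both regulators moved the gene, and many of the called genes were called with 1 regulator only. The own response of each regulator was tested against its own empty vector in a fit of the 4 groups, where upregulation was called for 4.17% of all genes with FvVND4c and for 10.1% with FvMYB46, and downregulation for 1.11% and 3.46%. The own responses share no library with each other, but the pooled test uses all of them, so the split is a description. Of the 953 upregulated genes, 408 (42.8%) were upregulated in both own responses, 109 (11.4%) only in that of FvVND4c, 425 (44.6%) only in that of FvMYB46 and 11 (1.15%) in neither. Of the 152 downregulated genes, 53 (34.9%) were downregulated in both, 20 only with FvVND4c, 72 (47.4%) only with FvMYB46 and 7 in neither. With a looser reading, 571 upregulated genes (59.9%) had an own log2 fold change over 1 in both experiments, and 95 downregulated genes (62.5%) had one under -1 in both. An own change opposite to the pooled one occurred for 46 upregulated genes (4.83%) and for 0 of the downregulated genes. The own change was larger in size with FvMYB46 for 677 upregulated genes (71.0%) and for 101 downregulated genes (66.4%).

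**Figure D2:**
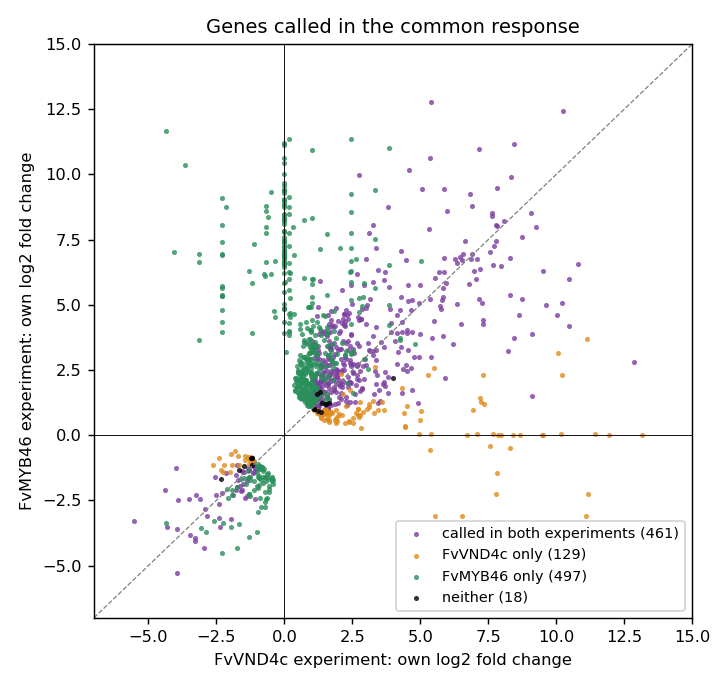
Own log2 fold changes of the 1105 genes of the common response, FvVND4c experiment on the horizontal and FvMYB46 experiment on the vertical axis, coloured by the experiments in which the gene was called in the same direction. Genes called in both (461, purple) follow the dashed line of equal change, whereas the 497 genes called only with FvMYB46 (green) and the 129 called only with FvVND4c (orange) lie away from it, many of them along the axes. Points at exactly 0 on an axis had no count in that experiment. The colours come from calls on these same changes, so the pattern is in part set by the split.

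Genes called in both experiments changed in each by the rule that chose them, and their median change was larger with FvMYB46. The 408 upregulated ones had median own log2 fold changes of 2.28 with FvVND4c and 2.95 with FvMYB46, where silent groups were set to 3 counts, and the 53 downregulated ones had medians of -1.78 and -2.08. Their median level was 14.9 and 14.5 CPM with FvVND4c overexpression and 17.9 and 18.7 CPM with FvMYB46 overexpression, against 2.2 and 2.18 CPM in the FvVND4c empty vectors and 1.93 and 1.28 CPM in the FvMYB46 empty vectors. The 53 downregulated genes had medians of 1.93 and 2.18 CPM with FvVND4c overexpression and 1.45 and 1.27 CPM with FvMYB46 overexpression, against 8.78 and 7.80 CPM in the FvVND4c empty vectors and 6.71 and 5.20 CPM in the FvMYB46 empty vectors. The arms did not overlap for 398 of the 408 and for 50 of the 53 genes, against 8.24% and 6.54% of all genes tested in the same direction. Here too the genes were chosen on the same libraries. With the further condition that the difference between the responses was not called, 281 upregulated genes (29.5%), 268 of them with a count in the empty vectors so that the difference could be fitted, and 47 downregulated genes (30.9%) were left.

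Genes called with 1 regulator alone had median changes in the same direction, under 1 on the log2 scale, with the other. They were chosen by a pooled call without a call in the other experiment, so this pattern is in part set by the choice. The 109 genes upregulated only with FvVND4c had median own log2 fold changes of 2.74 with FvVND4c and 0.82 with FvMYB46. Their median level was 11.1 and 11.2 CPM with FvVND4c overexpression but 1.19 and 1.19 CPM with FvMYB46 overexpression, against 1.03 and 0.821 CPM in the FvVND4c empty vectors and 0.922 and 0.560 CPM in the FvMYB46 empty vectors. The 425 genes upregulated only with FvMYB46 had medians of 0.80 with FvVND4c and 3.16 with FvMYB46. Their median level was 0.877 and 0.873 CPM with FvVND4c overexpression and 4.60 and 4.67 CPM with FvMYB46 overexpression, against 0.430 and 0.411 CPM in the FvVND4c empty vectors and 0.419 and 0.240 CPM in the FvMYB46 empty vectors. The arms overlapped for 49 of the 109 and for 197 of the 425 genes. The 72 genes downregulated only with FvMYB46 had median own changes of -0.94 with FvVND4c and -1.86 with FvMYB46, and the 20 downregulated only with FvVND4c had -1.69 and -0.96.

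**Figure D3:**
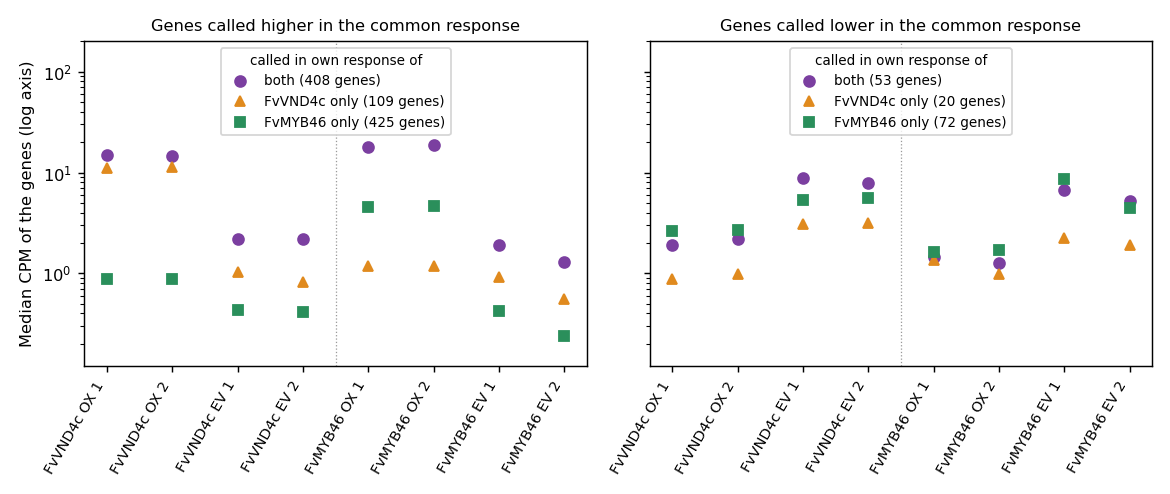
Median CPM per library, on a log axis, of genes called upregulated (left) and downregulated (right) in the common response, split by the own responses in which they were called, with the libraries of the FvVND4c experiment left of the dotted line. Genes called in both experiments (purple) are shifted in both, such as 14.9 and 14.5 CPM against 2.2 and 2.18 CPM with FvVND4c. Genes called with 1 regulator only are shifted mainly in its experiment. The split was made on these same libraries, so these shifts describe the classes and are no test.

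The 2 largest shared rises were those of FvH4_7g25521 and FvH4_3g31910, ranked by the smaller of their own changes. FvH4_7g25521 lies on chromosome 7 from 19459748 to 19461477 on the minus strand, a span of 1730 bp. It had 14.3 and 12 CPM with FvVND4c overexpression and 57.7 and 61.3 CPM with FvMYB46 overexpression, against 0 counts in all 4 libraries of the empty vector. The level was therefore higher in FvMYB46 than in FvVND4c overexpression, with no overlap between these libraries. Over both experiments its level with overexpression was 584-fold above a floor of 3 counts for the whole empty-vector arm (lower limit of the 95% exact binomial interval 496). In the own responses it was 104-fold above such a floor with FvVND4c and 485-fold with FvMYB46. The adjusted p of the quasi-likelihood test was 2.58e-05 for the pooled effect. The gene passed the filter on low counts only through overexpression libraries and so had to differ, and this p-value is no support. A difference between the own responses could not be fitted, because the empty vectors held no count.

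FvH4_3g31910 lies on chromosome 3 from 26961131 to 26965887 on the plus strand. It had 147 and 133 CPM with FvVND4c overexpression and 109 and 111 CPM with FvMYB46 overexpression, against 0.258 and 0.246 CPM in the FvVND4c empty vectors and 0.503 and 0.0800 CPM in the FvMYB46 empty vectors, where it had 1 to 6 counts per library. This gene moved almost alike in both experiments, with own log2 fold changes of 9.06 with FvVND4c and 8.53 with FvMYB46. The pooled log2 fold change was 8.79 (SE 0.23, adjusted p = 2.96e-07), and the ratio of the pooled counts was 461 (95% exact binomial interval 269 to 866). The difference between its own changes was 0.53 on the log2 scale (SE 0.74, adjusted p = 0.677).

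**Figure D4:**
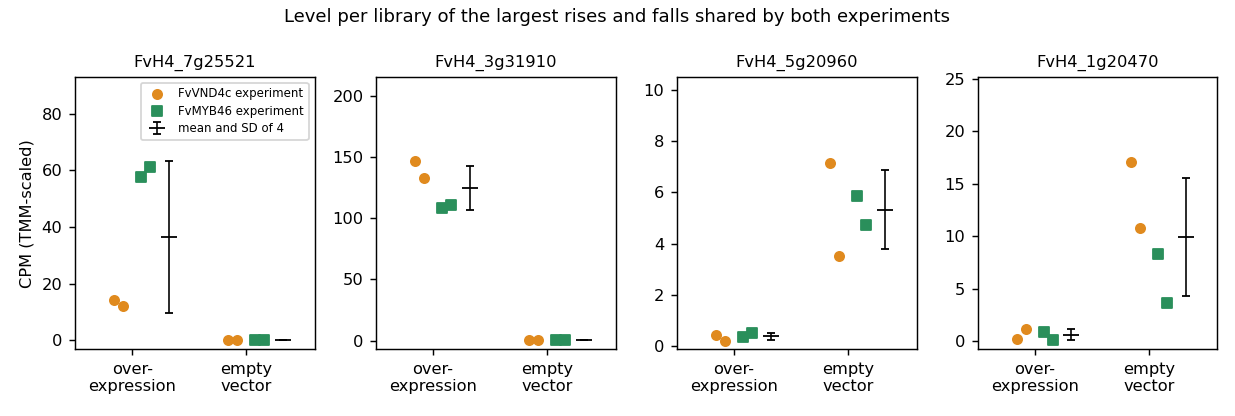
CPM per library (TMM-scaled totals) of the 2 largest rises and the 2 largest falls shared by both experiments, overexpression left and empty vector right in each panel, with circles for the FvVND4c and squares for the FvMYB46 experiment and bars for the mean and SD of 4 libraries. The arms do not overlap in any panel, because the genes were chosen by this condition. The gap between the regulators is widest for FvH4_7g25521, with 14.3 and 12 CPM against 57.7 and 61.3 CPM.

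The 2 largest shared falls were smaller in size than these rises. FvH4_5g20960, on the minus strand of chromosome 5 from 12608811 to 12609777, had 0.439 and 0.218 CPM with FvVND4c overexpression and 0.341 and 0.510 CPM with FvMYB46 overexpression, against 7.15 and 3.53 CPM in the FvVND4c empty vectors and 5.87 and 4.72 CPM in the FvMYB46 empty vectors. All overexpression libraries were thus below 1 CPM and all empty-vector libraries above 3 CPM. The log2 fold change was -3.76 (SE 0.35, adjusted p = 3.72e-04), with own changes of -3.93 for FvVND4c and -3.60 for FvMYB46 and a difference of -0.33 (SE 0.86, adjusted p = 0.834). FvH4_1g20470, on the plus strand of chromosome 1 from 12683430 to 12686124, had 0.263 and 1.20 CPM with FvVND4c overexpression and 0.937 and 0.0849 CPM with FvMYB46 overexpression, against 17.1 and 10.8 CPM in the FvVND4c empty vectors and 8.30 and 3.68 CPM in the FvMYB46 empty vectors. The replicates of this gene varied widely in both arms. Its arms did not overlap, which was a condition for the choice of these genes. Its log2 fold change was -3.95 (SE 0.56, adjusted p = 0.00349), with own changes of -4.32 for FvVND4c and -3.52 for FvMYB46.

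Among the genes with no overlap between the arms and a mean of at least 1 CPM, 622 were upregulated and 120 downregulated. The 25 largest shared rises had a smaller own log2 fold change of 6.53 to 10.25, with a median of 107 CPM with overexpression and 0.229 CPM with the empty vector. The 25 largest shared falls had a smaller own change of 1.75 to 3.60 in size, with a median of 0.533 CPM with overexpression and 4.63 CPM with the empty vector. The empty-vector level of these 25 rises reached up to 4.06 CPM. Both sets of 25 genes held members on all 7 chromosomes.

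For part of the genes, 1 pooled effect hid responses that differed between the regulators, often in size and not in direction. The difference between the responses, FvVND4c minus FvMYB46, was called for 1806 of all genes tested (9.62%), of which 707 (3.77%) were higher with FvVND4c and 1099 (5.86%) higher with FvMYB46. Within the common response it was called for 311 genes. Of the 953 upregulated genes, 70 responded more to FvVND4c and 220 more to FvMYB46, together 30.4%. Of the 152 downregulated genes, 21 (13.8%) differed, 4 of them with the stronger fall under FvVND4c and 17 with the stronger fall under FvMYB46. Even among the 408 genes upregulated in both experiments, 34 rose more with FvVND4c and 84 more with FvMYB46. Conversely, the difference was not called for 61 of 97 genes upregulated only with FvVND4c and for 230 of 366 upregulated only with FvMYB46. Genes without a count in the empty vectors, where it could not be fitted, were left out. Nor could it be fitted for genes without a count in the whole FvVND4c experiment, 60 of the 953. Of these, 49 had no count in the empty vectors, and the others stay in the 366. Being called in a single experiment thus did not by itself show a difference between the regulators.

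The 4 largest differences were taken among genes of the common response with a mean of at least 1 CPM. These genes were silent or nearly so under the other regulator, and their pooled calls depended on the model. FvH4_1g25140, on chromosome 1 from 16936762 to 16942151, had 126 and 104 CPM with FvVND4c overexpression against 0.0861 and 0 CPM in its empty vectors, and no count in both FvMYB46 overexpression libraries against 0.0838 and 0.0800 CPM in their empty vectors. FvH4_5g34111, on chromosome 5 from 24789468 to 24797533, had 427 and 319 CPM with FvVND4c overexpression against 0.172 and 0.0821 CPM in its empty vectors, and 0.0852 and 0.255 CPM with FvMYB46 overexpression against 0.168 and 0.160 CPM. Its span overlaps another gene, and reads of overlapping genes cannot be told apart, as no source used here states whether strand was used in counting. Both genes thus rose with FvVND4c alone, and the difference was 14.19 (SE 2.26, adjusted p = 0.00248) for FvH4_1g25140 and 11.36 (SE 1.66, adjusted p = 0.00106) for FvH4_5g34111.

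The reverse held for FvH4_7g11140, on chromosome 7 from 10418910 to 10419541, with no count in both FvVND4c overexpression libraries against 0.344 and 0.0821 CPM in their empty vectors, and 160 and 174 CPM with FvMYB46 overexpression against 0.0838 and 0 CPM. FvH4_2g18610, on chromosome 2 from 15941491 to 15941968, likewise had no count in both FvVND4c overexpression libraries against 0.172 and 0.0821 CPM, and 69.3 and 68.4 CPM with FvMYB46 overexpression against 0.0838 and 0 CPM. The differences were -16.01 (SE 1.74, adjusted p = 2.63e-04) for FvH4_7g11140 and -14.04 (SE 1.83, adjusted p = 7.66e-04) for FvH4_2g18610. Fitted values of this size rest on groups with 0 to 5 counts and depend on the prior count of the fit. The ratio of the pooled counts, overexpression over empty vector, was 871 (95% exact binomial interval 298 to 4227) for FvH4_1g25140, 1217 (591 to 3029) for FvH4_5g34111, 716 (329 to 1952) for FvH4_7g11140 and 443 (173 to 1628) for FvH4_2g18610. In none of these 4 genes did all overexpression libraries lie above all empty-vector libraries, although each was called upregulated in the common response. These pooled calls were lost for all 4 genes without the experiment block (adjusted p 0.0586 to 0.0671) and with limma on log2 TPM (0.142 to 0.409 over both pseudocounts). For FvH4_1g25140, FvH4_7g11140 and FvH4_2g18610 they were also lost with DESeq2 (0.180, 0.512 and 0.385) and when the mean of both own changes was tested (0.990, 0.986 and 0.982).

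A group of 84 upregulated genes were silent in all 4 libraries of the empty vector. All 84 were called, but they passed the filter on low counts only through the overexpression libraries and so had to differ. Of these, 26 had counts with both regulators, 9 with FvVND4c only and 49 with FvMYB46 only, so most of them were detected with 1 regulator. The difference between the responses could not be fitted for these 84 genes and counts as not called. Where all libraries of an experiment are empty, the block absorbs it and the pooled effect rests on the other experiment. This applied to 60 of the 953 upregulated genes for the FvVND4c experiment and to 9 for the FvMYB46 experiment, and with at most 3 counts over the 4 libraries it applied to 120 and 21. None of the 152 downregulated genes was in this position. The number of upregulated genes with a count was 856 and 851 with FvVND4c overexpression and 935 and 934 with FvMYB46 overexpression, against 797 and 789 in the FvVND4c empty vectors and 806 and 774 in the FvMYB46 empty vectors.

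Pooling added few genes that neither experiment called, and left out many that a single one did. The 11 genes upregulated only in the pooled test had log2 fold changes of 1.04 to 2.79 and mean levels of 0.910 to 4.51 CPM with overexpression and 0.121 to 2.15 CPM with the empty vector. The 7 downregulated ones had changes of 1.02 to 2.01 in size and levels of 0.232 to 1.30 CPM with overexpression and 0.874 to 2.66 CPM with the empty vector. The lowest own adjusted p among the 11 was 0.0509 for FvVND4c and 0.0517 for FvMYB46, just outside the threshold, and the difference between the responses was called for 0 of the 18. Of the genes upregulated in an own response, 266 of 783 (34.0%) for FvVND4c and 1056 of 1889 (55.9%) for FvMYB46 were not upregulated in the pooled test. For downregulated genes this was 136 of 209 (65.1%) and 525 of 650 (80.8%). Genes called in the same direction in both own responses were nearly all called again, 408 of 409 upregulated and 53 of 53 downregulated genes. Another 77 genes were called in opposite directions by the regulators, and 0 of them were called in the pooled test. At the threshold itself, the last gene inside had an adjusted p of 0.0499 with a log2 fold change of 1.38, and the first gene outside had 0.0501 with 3.93.

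The share of genes called differed with level and span. By the mean over all 8 libraries, upregulation was called for 178 of 1157 genes below 1 CPM (15.4%), 425 of 6282 genes at 1 to 10 CPM (6.77%), 274 of 9031 genes at 10 to 100 CPM (3.03%) and 76 of 2296 genes above 100 CPM (3.31%). Downregulation was called for 1.47%, 1.59%, 0.332% and 0.218% of the same classes. Genes below 1 CPM could pass the filter on low counts through 1 overexpression group alone, and this class had a median log2 fold change of 0.35, against -0.02, -0.02 and 0.01 in the others, so nothing is read from its high share. The median gene span, introns included, was 2156 bp for upregulated and 2166.5 bp for downregulated genes, against 3220.5 bp for all genes tested. In the fourth of genes with the shortest spans (201 to 2028 bp), 9.39% were upregulated and 1.49% downregulated, and in the fourth with the longest (4856 to 41652 bp) 2.81% and 0.341%. Whether level accounts for the shift in span was not tested.

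The common response was spread over the genome, with local groups. The share of upregulated genes ran between 4.41% on chromosome 7 and 5.49% on chromosome 3, and that of downregulated genes between 0.649% and 1.08%. The next tested gene along the chromosome was also upregulated for 115 of 951 upregulated genes (12.1%), against 5.08% of all genes tested. In 5 of these 115 cases the spans of both genes overlapped. For downregulated genes this was 8 of 152 (5.26%), against 0.81%. There were 94 runs of at least 2 neighbouring upregulated genes, with 209 genes, of which 16 runs had at least 3 genes and 2 had at least 4. The longest, on chromosome 2 from 16869122 to 16895221, held 6 genes on 1 strand with log2 fold changes of 1.12 to 3.25. Its summed level was 44.3 and 53.9 CPM with FvVND4c overexpression and 82.4 and 89.8 CPM with FvMYB46 overexpression, against 26.8 and 28.2 CPM in the FvVND4c empty vectors and 23.1 and 16.5 CPM in the FvMYB46 empty vectors. All 6 genes were called with FvMYB46, 1 of them also with FvVND4c, and the difference was called for 3. The next longest, 5 genes on chromosome 4 from 22758408 to 22769333, was also stronger with FvMYB46, with the difference called for all 5. It summed to 830 and 1043 CPM with FvVND4c overexpression and 1331 and 1358 CPM with FvMYB46 overexpression, against 480 and 565 CPM in the FvVND4c empty vectors and 229.7 and 234 CPM in the FvMYB46 empty vectors. Neighbouring genes can be near-identical tandem copies that share reads, and this was not tested. Downregulated neighbours formed 8 runs of 2 genes.

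How many of these genes were called again under other settings depended on the class. Same-numbered libraries deviated together across groups, and with these 4 pairs as a replicate block in place of the experiment, 473 genes were upregulated and 74 downregulated, of which 472 and 72 were among those reported. This block returned 348 of the 408 genes upregulated in both own responses (85.3%), against 37 of 109 called only with FvVND4c (33.9%) and 87 of 425 called only with FvMYB46 (20.5%). When genes with overlapping spans were left out, 349 of the 408 (85.5%), 101 of the 109 (92.7%) and 376 of the 425 (88.5%) were called again. The genes left out, 106 of the 953, could not be called again, so nothing is read from the order of these shares. With RLE scaling all 3 classes were called again in full. Without the second FvMYB46 overexpression library, 637 genes were upregulated and 69 downregulated, with 400 of the 408 (98.0%) but 150 of the 425 (35.3%) called again. Without the first, 397 of the 408 (97.3%) and 155 of the 425 (36.5%) were. Among the downregulated genes, leaving out the second FvMYB46 overexpression library returned 48 of the 53 called in both (90.6%) and 7 of the 72 called only with FvMYB46 (9.72%). For upregulated genes, the class that lost more followed the experiment that lost a library. Without either FvVND4c overexpression library, genes called only with FvVND4c were called again less often than those called only with FvMYB46. A filter that required 10 counts in every library gave 407 upregulated and 77 downregulated genes. Only 421 of the 953 and 81 of the 152 reported genes passed it, and of these 402 and 77 were called again. The number of downregulated genes depended more on the libraries used than that of upregulated genes did.

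**Figure D5:**
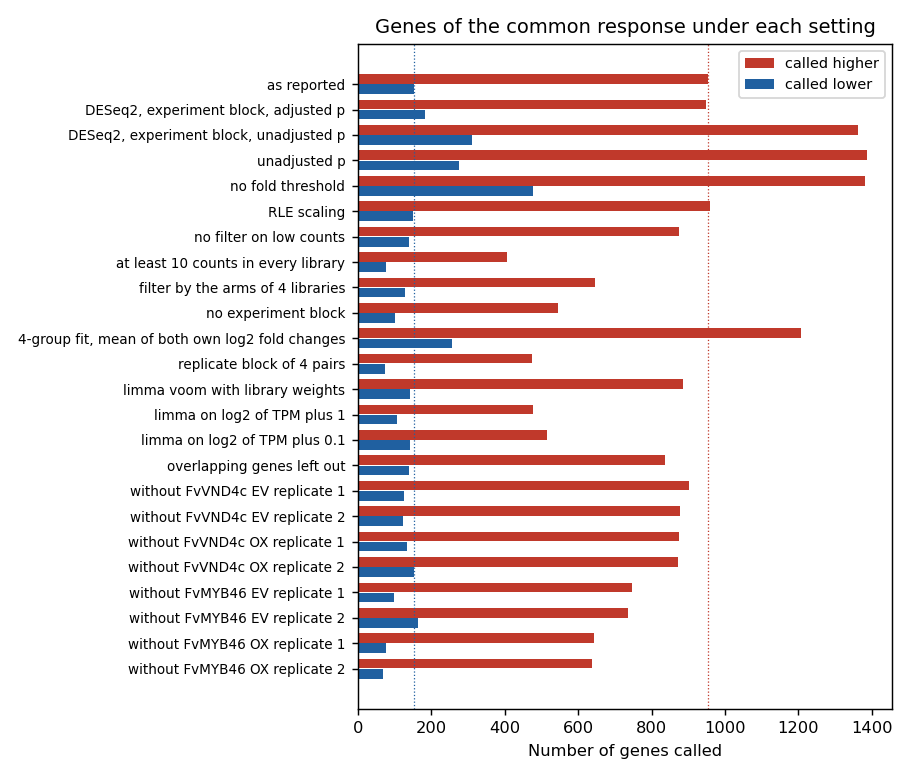
Number of genes called upregulated (red) and downregulated (blue) in the common response as reported and under each alternative setting, with dotted lines at the reported 953 and 152. Upregulated genes outnumber downregulated genes under every setting drawn, and both counts are well below the reported ones where 10 counts are required in every library (407 and 77), under the replicate block (473 and 74) and without the second FvMYB46 overexpression library (637 and 69).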

How the data were processed

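RNA from 8 fruit libraries was sequenced by the authors, who trimmed reads with fastp 0.20.1, mapped them with HISAT2 2.2.1 to *F. vesca* genome v4.0.a2, removed duplicates with SAMtools 1.9 and counted reads per gene with featureCounts 2.0.3. The deposited files hold raw counts per gene for 34009 genes. A second set of deposited files holds TPM values, computed by the authors over gene spans and used here only in alternatives. Strand setting and the filter behind the TPM files are not given in the sources used here. Of the gene identifiers, 0 matched a RefSeq table of 24946 genes of another build, so no names, sequences or gene lists could be used.

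Counts were analysed with edgeR 4.0.16 in R 4.3.3 (limma 3.58.1). Genes were kept by filterByExpr with the 4 groups, totals were TMM-scaled, and the quasi-likelihood test of overexpression against empty vector had the experiment as block (biological coefficient of variation 0.182). Own responses and their difference were tested in a 4-group fit of the same libraries (0.107). Calls required an adjusted p under 0.05 and a log2 fold change over 1 in size. The standard error was the change over the square root of F, which is approximate. The scripts were tested on simulated data, whose outcome is not used for any result. Zeros were set to a floor of 3 counts, and 95% exact binomial intervals cover counting error only.

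Pairing was checked from the data alone, as the labels do not say what a replicate number stands for. Deviations from group means (log2 of CPM plus 0.5) of same-numbered libraries correlated at 0.115 to 0.243 over the group pairs. The values were 0.243 in the FvVND4c and 0.176 in the FvMYB46 experiment, and 0.220 between the empty vectors of both experiments. Pairs within an experiment are therefore not singled out by the data. The reported fits do not use the pairs, and the counts with pairs as block are given with the results. With 2 libraries per group, both pairs of an experiment share 1 value.

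By rule, genes given by identifier included the 2 rises and 2 falls with the largest smaller own change. These were taken among called genes without overlap of the arms and with a mean of at least 1 CPM. The 2 most positive and 2 most negative called differences were taken among genes called in the common response with a mean of at least 1 CPM. The longest run of neighbours was given by position. The second-longest run was chosen after its values were seen. The comparison, lists and rules were chosen with earlier results of these data known. Alternatives were DESeq2 1.42.0, unadjusted p, no fold threshold, RLE scaling, other filters on low counts, no block, the mean of both own responses, the replicate block, limma voom with library weights, limma on log2 of TPM plus 1 or 0.1, and each library left out in turn. Leaving out overlapping genes was added after the data were seen.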

Additional observations from a re-analysis of the deposited data

Results flagged for a closer look

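The responses to the regulators differed by the test of the difference itself for 1806 genes, of which 311 belong to the common response. At a mean of at least 1 CPM, the largest within it that were stronger with FvVND4c were 14.19 for FvH4_1g25140 and 11.36 for FvH4_5g34111. Those stronger with FvMYB46 were -16.01 for FvH4_7g11140 and -14.04 for FvH4_2g18610, all on the log2 scale.

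Among 22 groups of 4 libraries, 3 held a library whose gap to the nearest other, divided by the range of the group, was above Dixon's 95% critical value. Chance gives about 1 in 20 such groups. The total count of the second FvVND4c overexpression library was low among the overexpression libraries, at 9765362 (gap over range 0.907). The level of FvH4_1g25140 in the empty-vector libraries had a ratio of 0.929, from no count in the second FvVND4c library and 1 count in each of the others. That of FvH4_5g34111 had a ratio of 0.865, from 1 count in the second FvVND4c empty-vector library and 2 counts in each of the others.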

How the results depend on the processing

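The 4 shared rises and falls and the 4 differences given by identifier kept their direction and call under every alternative that tested them. The pooled changes of the 4 genes given for their differences kept their direction but lost the call in 20 values. These were the values without the experiment block, with limma on log2 TPM and, FvH4_5g34111 excepted, with DESeq2 and the mean of both own changes. The pooled change of these 4 genes was not tested under the stricter filters. The counts of genes kept their direction but not their size. For the upregulated genes of the common response (953), 407 were called with at least 10 counts in every library, 546 without the experiment block, 473 with the replicate block, and 476 or 516 with limma on log2 of TPM plus 1 or 0.1. For the downregulated genes (152), 311 were called with DESeq2 at unadjusted p, 274 at unadjusted p in edgeR, 478 without a fold threshold, 77 with at least 10 counts in every library, 256 with the mean of both own changes and 74 with the replicate block. The difference between the responses (1806) was called for 2831 genes without a fold threshold and for 2111 with the replicate number as a block. With at least 10 counts in every library, 168 differences lay in the common response, and 233 upregulated and 28 downregulated genes were called in both experiments. The replicate block changed none of the pooled calls of the 8 genes and none of the 4 differences. For these changes in number the cause was not tested, beyond the fewer genes tested under the stricter filter.

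Leaving out 1 library at a time, with the lone library of a group assumed to vary like the others, gave 637 to 903 upregulated and 69 to 163 downregulated genes. The downregulated count was 69 and 77 without the second and the first FvMYB46 overexpression library and 98 without the first FvMYB46 empty vector. The difference was called for 1237 to 2394 genes, and for 129 to 255 within the common response, lowest without either FvMYB46 overexpression library (131 and 129), and 197, 175 and 206 without the first or second FvVND4c or the second FvMYB46 empty vector. Genes called in both experiments numbered 298 to 437 upregulated and 32 to 77 downregulated, with 32 and 33 without the first or second FvVND4c empty vector.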
